A study of Mus musculus with 9 samples.

Results

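The 8 genes Ddr2, Pdgfra, Pdgfrb, Thy1, Cdh11, Vim, Twist1 and Prrx1 are commonly used as markers of fibroblasts and other mesenchymal cells. They were followed here through every probe set that the array's annotation gives to one of them alone, which yielded 10 of the 12488 probe sets on the array, for 8 of the 8251 genes it names. Pdgfra had 3 probe sets and each of the other 7 genes had 1. The genes were chosen by name as such markers, with earlier results of these data known.

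RNA from mouse cornea, tendon and lens had been hybridised to Affymetrix expression arrays, 9 in all. Adult corneas came from mice 7 weeks old (3 RNA preparations) and P10 corneas from mice 10 days old (2 preparations), both cut away from the limbus, the rim where cornea meets sclera. Corneal epithelium was scraped off before extraction, which lowered its share of the RNA without removing it, per the series' design text. Flexor digitorum longus tendons (2 preparations) and lenses (2 preparations) came from mice 7 weeks old, each from pooled organs. Strain, genotype and sex are not given in the sources used here. Nothing in the labels ties preparations to individual animals, so p-values measure the spread between RNA preparations. The same cornea arrays had served as baselines in an earlier study of cultured corneal cells, per the design text, so tissue cannot be told apart from that batch in any comparison of cornea with tendon or lens.

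Mesenchymal cells sit singly in a matrix that they build, and they sense it and one another through surface receptors. Ddr2 is a receptor tyrosine kinase that is activated by fibrillar collagen, and Pdgfra and Pdgfrb are the receptor tyrosine kinases for platelet-derived growth factors, which drive the division and migration of fibroblasts and mural cells. Thy1 is a small surface glycoprotein of fibroblasts, which in the mouse also coats T cells and neurons. Cdh11 is the cadherin by which mesenchymal cells adhere to each other, and Vim is the intermediate filament protein of mesenchymal cells and also of lens cells. Twist1 (a basic helix-loop-helix protein) and Prrx1 (a paired-type homeodomain protein) are transcription factors of embryonic mesenchyme. The corneal stroma is built by keratocytes, which descend largely from neural crest, and the tendon by tenocytes, whereas the lens is an epithelial organ with no fibroblasts inside its capsule.

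Of the 8 genes, 5 had a promoter in the RefSeq table for GRCm38.p6, namely Ddr2, Pdgfra, Vim, Twist1 and Prrx1. The 250 bases before the annotated start are shown for both transcription factors, whose levels separated tendon from lens, and for Ddr2, whose level was highest in P10 cornea. Capitals mark every match, on either strand, to 4 short motifs that were searched. These were the E box CANNTG, bound by basic helix-loop-helix proteins, the homeodomain core TAATTA, the TATA box TATAAA and the GC box GGGCGG. Prrx1 lies at chr1:163313651-163313900 on the minus strand, Twist1 at chr12:33957421-33957670 on the plus strand and Ddr2 at chr1:170088945-170089194 on the minus strand.
Prrx1: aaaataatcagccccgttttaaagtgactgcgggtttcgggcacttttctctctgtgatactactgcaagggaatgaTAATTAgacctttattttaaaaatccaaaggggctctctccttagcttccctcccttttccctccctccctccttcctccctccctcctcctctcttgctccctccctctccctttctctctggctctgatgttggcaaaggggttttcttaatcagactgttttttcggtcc
Twist1: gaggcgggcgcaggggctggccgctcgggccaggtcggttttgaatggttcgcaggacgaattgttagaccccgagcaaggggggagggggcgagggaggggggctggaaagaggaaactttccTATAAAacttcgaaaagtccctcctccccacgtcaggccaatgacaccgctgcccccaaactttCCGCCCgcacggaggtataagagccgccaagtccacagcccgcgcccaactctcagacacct
Ddr2: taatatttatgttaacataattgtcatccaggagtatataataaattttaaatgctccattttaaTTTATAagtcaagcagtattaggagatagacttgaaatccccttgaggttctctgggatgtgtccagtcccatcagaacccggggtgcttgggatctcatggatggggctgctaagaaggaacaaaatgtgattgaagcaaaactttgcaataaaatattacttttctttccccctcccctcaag

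The Prrx1 window held 1 homeodomain core, at bases 173 to 168 before the start, a motif found in 4.84% of the 32851 promoter windows of the same length. The Twist1 window held 1 TATA box, at bases 126 to 121, and 1 GC box on the other strand, at bases 62 to 57. The Ddr2 window held 1 match to the TATA box on the other strand, at bases 185 to 180. All of these are matches of letters, and whether any acts as the named element was not tested. Over all windows the TATA box was found in 12.4% and the GC box in 32.7%. The E box was in 66.2% of all windows, but none of these 3 windows held these letters. The matches share no position between the 3 genes. In base composition the windows ranged from 37.6% G and C for Ddr2, through 47.6% for Prrx1, to 62.4% for Twist1, around a median of 52.4% over all windows. In the windows not printed, Vim held a TATA box at bases 32 to 27 and Pdgfra an E box at bases 182 to 177.

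The deposited values are a linear expression index in arbitrary units, and array medians ran from 67.6 to 88.0. Adult cornea replicate 1 stood apart in the ratio of 3′ to 5′ control probe sets, at 2.25 for Gapdh against 0.831 to 1.04 on the other 8 arrays. Adult cornea replicate 2 gave the lowest adult value for 7 of the 10 probe sets, while it was lowest of the 3 for 39.6% of all tested probe sets. Without replicate 1, 2, 4 and 4 member probe sets were called in adult cornea over P10 cornea, lens and tendon, the same counts as with it, although Ddr2 left and Thy1 entered the calls against lens. Lens and tendon markers were highest where the labels put them, with a summed index over 7 lens genes of 33863 to 35264 in lens and over 4 tendon lineage genes of 11218 to 12562 in tendon. The 5 corneal stroma genes summed to 10021 to 11347 in adult cornea, 13932 to 14198 in P10 cornea and 7737 to 8475 in tendon. Of these, Aldh3a1 averaged 6605 in adult cornea, 6602 in P10 cornea and -10.3 in tendon. On group means the cornea sums lay above that of tendon only with this gene counted. Dcn was 2.47-fold lower in adult cornea than in tendon (limma adjusted p = 0.00042), and Kera, Lum and Col5a1 were not called. The lens genes still summed to 4818 to 7588 in adult cornea and 4715 to 8573 in P10 cornea, against 531 to 578 in tendon. The summed index of 11 epithelial genes was 18554 to 18983 in adult cornea, 19489 to 19673 in P10 cornea, 677 to 1520 in tendon and 2141 to 2526 in lens, so the scraped corneas still carried epithelial RNA. The tendon RNA also carried skeletal muscle transcripts, with a summed index of 44541 to 53234 over 11 genes, against 386 to 505 in adult cornea, 757 to 1070 in P10 cornea and 290 to 393 in lens. In such bulk RNA, fewer cells of a type and less RNA per cell cannot be told apart.

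**Figure D1:**
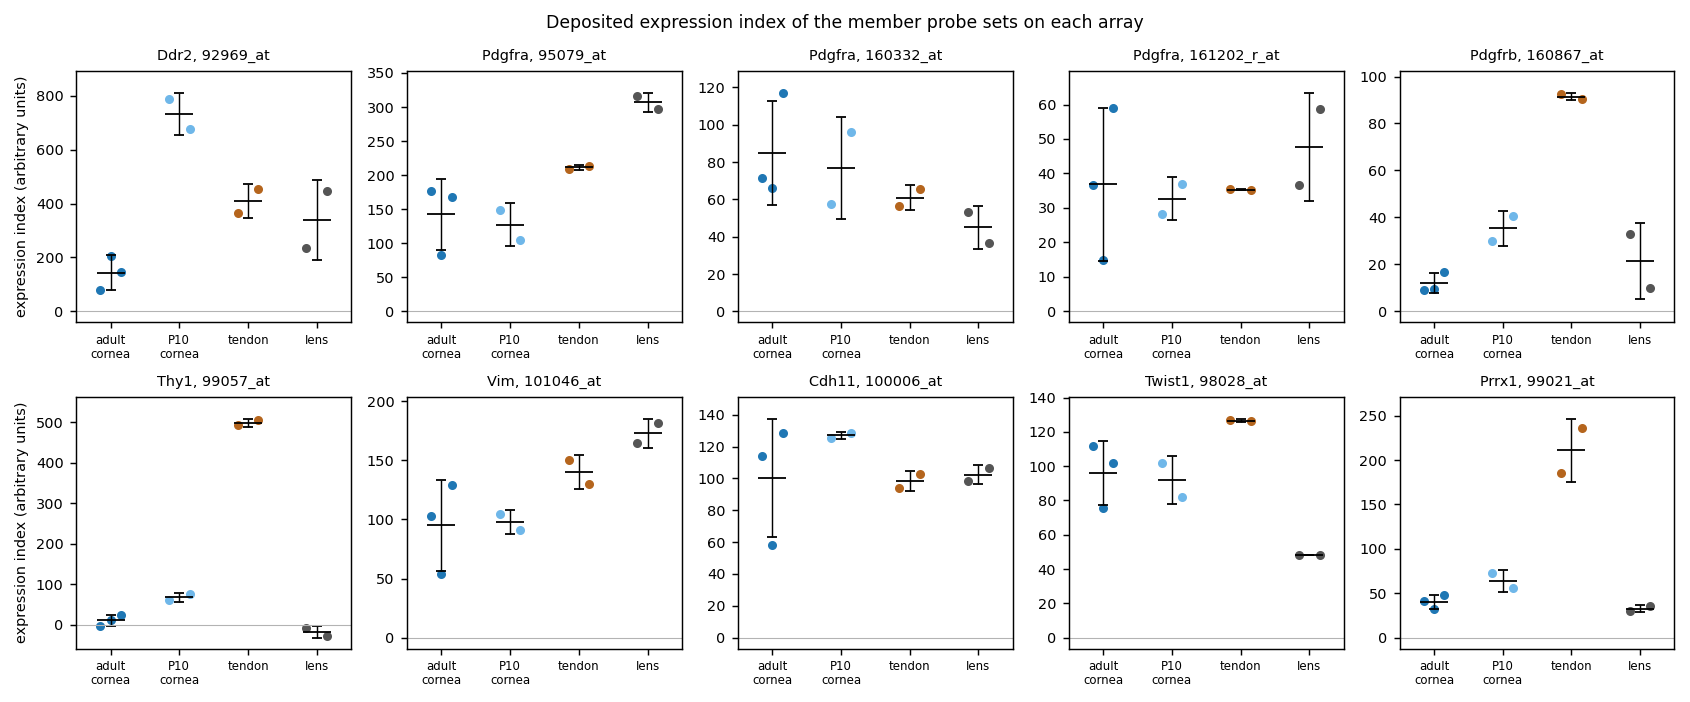
Expression index (arbitrary units, linear axis) of the 10 probe sets on each of the 9 arrays. Points are arrays, the black dash is the group mean and bars are SD (adult cornea n = 3, others n = 2). Thy1, Prrx1 and Pdgfrb stand highest in tendon, Ddr2 in P10 cornea, and Vim and the first Pdgfra probe set in lens.

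Among the receptors, Ddr2 (92969_at) was lower in adult than in P10 cornea. Its index was 77.6, 207 and 145 on the 3 adult corneas, 788 and 677 on the P10 corneas, 366 and 454 on the tendons, and 235 and 446 on the lenses. Both P10 arrays lay above every other array, and all 3 adult corneas lay below every other array. Adult cornea averaged 143 ± 64.5 and P10 cornea 732 ± 78.4 (SD), a log2 difference of -2.32 ± 0.36 (SE) on the log2(index + 16) scale, or 4.98-fold lower in adult cornea (limma adjusted p = 0.00602). That scale, used for every fold here, understates differences of low genes. The call was lost without either P10 array, at limma adjusted p values of 0.0698 without replicate 1 and 0.0534 without replicate 2.

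Ddr2 was also lower in adult cornea than in the other adult tissues. It was 2.83-fold lower than in tendon (limma adjusted p = 0.0091) and 2.27-fold lower than in lens (limma adjusted p = 0.0203). The difference from tendon gave 0.0827 without tendon replicate 2. The difference from lens gave 0.208 without lens replicate 2 and 0.0558 without adult cornea replicate 1. P10 cornea was 2.19-fold above lens (limma adjusted p = 0.0365). That call was lost without lens replicate 1 (0.241), P10 replicate 1 (0.153), P10 replicate 2 (0.0855) or either tendon array (0.0536). It was also lost with a pseudocount of 1 (0.0554), trimmed mean scaling (0.0599) and median centring (0.105). Tendon and lens did not differ beyond their spread (limma adjusted p = 0.547), and their arrays overlapped.

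The 3 Pdgfra probe sets did not follow each other. On 95079_at the index was 177, 82.3 and 167 in adult cornea, 149 and 105 in P10 cornea, 209 and 213 in tendon, and 317 and 297 in lens. Both lens arrays were above all others and both tendon arrays were next. Adult cornea was 2.13-fold below lens (log2 difference -1.09 ± 0.29, limma adjusted p = 0.0105) and P10 cornea 2.28-fold below it (limma adjusted p = 0.0112). Without lens replicate 1 or 2 the adult comparison gave 0.0607 or 0.0532 and the P10 comparison 0.054 or 0.0505, and leaving out P10 replicate 2 gave 0.0861 in the P10 comparison. Corneal ages did not differ beyond their spread (limma adjusted p = 0.947), with a 95% interval of the log2 difference from -0.55 to 0.75.

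On 160332_at the corneal means lay above those of tendon and lens instead of below them. The index was 71.6, 66.0 and 117 in adult cornea, 57.4 and 96.2 in P10 cornea, 56.4 and 65.6 in tendon, and 53.2 and 36.9 in lens. Both lens arrays were the lowest of the 9. Adult cornea stood 1.63-fold above lens without passing (limma adjusted p = 0.0529), although quantile normalisation and median centring (0.0495 each), trimmed mean scaling (0.0384) and leaving out adult cornea replicate 2 (0.0359) each made it a call. The third probe set, 161202_r_at, was below the array median on all 9 arrays, between 14.8 and 59.0, and was not tested. The direction of Pdgfra between cornea and lens therefore depended on the probe set, and which one reports the transcript was not tested.

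Pdgfrb (160867_at) read highest in tendon. Its index was 9.21, 9.72 and 16.9 in adult cornea, 30.2 and 40.6 in P10 cornea, 92.5 and 90.4 in tendon, and 32.9 and 9.83 in lens. Only the tendon arrays reached their array medians, and they lay far above all others. Adult cornea averaged 11.9 ± 4.29 and tendon 91.5 ± 1.50, which was 3.88-fold lower in adult cornea (log2 difference -1.95 ± 0.28, limma adjusted p = 0.00042). Tendon was 3.02-fold above lens (limma adjusted p = 0.0018). P10 cornea was 2.10-fold below tendon (limma adjusted p = 0.0286), a call that leaving out any P10 or tendon array ended, at 0.0776 to 0.181, as did a pseudocount of 1 (0.107).

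Between the corneal ages Pdgfrb differed by a log2 value of -0.88 ± 0.28, with no overlap of the arrays, and did not pass (limma adjusted p = 0.135). Leaving out either lens array gave 0.0467. Lens replicates 1 and 2 were themselves far apart, and without replicate 1 P10 cornea was above lens (0.0165), while without replicate 2 adult cornea was below it (0.0328). Mural cells of vessels also carry Pdgfrb. The summed index of 8 endothelial genes was 712 to 919 in adult cornea, 889 to 984 in P10 cornea, 1399 to 1435 in tendon and 823 to 918 in lens, so that tendon stood above the other groups, which overlapped. Of the 5 endothelial genes tested, Cdh5, Vwf and Flt1 were lower in adult cornea than in tendon and 0 were higher. Over all probe sets, 18.9% were lower and 16.1% higher. Cdh5 and Vwf reached the array median on the tendon arrays alone. Pecam1, an adhesion protein of endothelium, was instead listed at or below 0 on every P10 cornea, tendon and lens array. On the adult corneas it was 22.6 to 101. The part of vessels in the Pdgfrb result was not tested.

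Thy1 (99057_at) had the widest range of the members on the log2 scale. Its index was -2.33, 10.4 and 22.7 in adult cornea, 60.1 and 74.7 in P10 cornea, 492 and 506 in tendon, and -7.27 and -27.8 in lens. On the deposited index the 4 groups did not overlap anywhere, and tendon alone exceeded the array medians. Adult cornea replicate 1 and both lens arrays were below 0, however, and tied on the tested scale, where such values were set to 0. Adult cornea averaged 10.3 ± 12.5 and tendon 499 ± 9.80, a lower level in adult cornea (log2 difference -4.34 ± 0.32, limma adjusted p = 3.58e-06). An adult array was listed below 0 and all 3 were far below their array medians, so no fold is given against adult cornea. P10 cornea was 6.20-fold below tendon (limma adjusted p = 0.000376), which a pseudocount of 1 turned to 0.117.

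Adult cornea was also below P10 cornea for Thy1 (log2 difference -1.71 ± 0.32, limma adjusted p = 0.0145). That call was lost without P10 replicate 1 (0.0956) or 2 (0.155), with a pseudocount of 1 (0.172) and in a fit of the corneas alone (0.0752). Both lens arrays were listed below 0, so no fold against lens is given. Thy1 was higher in P10 cornea (limma adjusted p = 0.000343) and in tendon (limma adjusted p = 1.79e-06) than in lens, while adult cornea did not differ from lens beyond its spread (limma adjusted p = 0.106), except without adult cornea replicate 1 (0.00909).

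The summed index of 9 T cell genes was 705 to 1039 in adult cornea, 863 to 873 in P10 cornea, 863 to 904 in tendon and 1466 to 1677 in lens. That of 9 neuronal genes was 692 to 868 in adult cornea, 941 to 1020 in P10 cornea, 872 to 881 in tendon and 3054 to 3508 in lens. The part of T cells and neurons in the Thy1 values was not tested. Leukocyte markers (10 genes) summed to 864 to 1001 in adult cornea, 1190 to 1448 in P10 cornea and 678 to 740 in lens, against 3519 to 3732 in tendon. Adipocyte markers (6 genes) summed to 584 to 895 in adult cornea, 659 to 700 in P10 cornea and 1558 to 1834 in lens, against 5493 to 5853 in tendon. Schwann cell markers (4 genes) summed to 702 to 1054 in adult cornea, 985 to 1028 in P10 cornea and 927 to 1280 in lens, against 2595 to 3308 in tendon. The part of leukocytes, adipocytes, Schwann cells and muscle in the tendon values of the members was not tested.

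Cdh11 (100006_at) gave no call in any comparison. Its index was 114, 58.4 and 128 in adult cornea, 125 and 128 in P10 cornea, 94.0 and 103 in tendon, and 98.2 and 106 in lens. The 9 arrays lay within a narrow band apart from adult cornea replicate 2, the lowest of all. Both P10 arrays lay above the tendon and lens arrays, by less than the test could call. Limma adjusted p ran from 0.455 to 0.938, with a 95% interval from -0.63 to 0.56 on the log2 scale for adult cornea over tendon and from -0.70 to 0.60 for tendon over lens. These intervals leave room for differences of either sign.

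Vim (101046_at) stood highest in lens. Its index was 103, 53.5 and 129 in adult cornea, 105 and 91.0 in P10 cornea, 150 and 130 in tendon, and 164 and 181 in lens. Both lens arrays exceeded all others, and adult cornea replicate 2 was again the lowest of the 9. Adult cornea averaged 95.0 ± 38.2 and lens 173 ± 12.0, a 1.78-fold lower level in adult cornea (log2 difference -0.83 ± 0.28, limma adjusted p = 0.0318). The call was lost without lens replicate 1 (0.0898) or 2 (0.152), without either tendon array (0.0508 and 0.0509) and when adult cornea and lens were fitted alone (0.0814).

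P10 cornea was likewise below lens for Vim, by a log2 difference of -0.73 ± 0.31, and did not pass (limma adjusted p = 0.0725). It passed with quantile normalisation (0.021), median centring (0.0161) and without adult cornea replicate 2 (0.0102). Adult cornea over tendon did not pass (limma adjusted p = 0.16) but did without adult cornea replicate 3 (0.037) or with the replicate number as a block (0.0335). Against its label as a mesenchymal marker, the Vim probe set did not read higher in the tissues with fibroblasts than in lens. On adult cornea replicate 2 it read below the array median of 68.0. Whether this probe set reports the Vim transcript was not tested.

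Twist1 (98028_at) separated lens from everything else. Its index was 111, 75.5 and 102 in adult cornea, 102 and 82.1 in P10 cornea, 127 and 126 in tendon, and 48.3 and 48.0 in lens. Both lens arrays lay below all others and both tendon arrays above. Tendon averaged 127 ± 0.74 and lens 48.2 ± 0.23, a 2.22-fold higher level in tendon (log2 difference 1.15 ± 0.22, limma adjusted p = 0.0015). Adult cornea was 1.73-fold above lens (limma adjusted p = 0.00748) and P10 cornea 1.67-fold (limma adjusted p = 0.0166).

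The P10 call for Twist1 was lost under quantile normalisation (0.0601), median centring (0.0577), and without lens replicate 1 (0.0523), lens replicate 2 (0.0637) or P10 replicate 1 (0.129). Corneal ages did not differ beyond their spread (limma adjusted p = 0.965), with a 95% interval of the log2 difference from -0.39 to 0.49. The gap between cornea and tendon did not pass at either age (limma adjusted p = 0.194 for both).

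Prrx1 (99021_at) was high in tendon and low elsewhere. Its index was 41.4, 32.0 and 47.7 in adult cornea, 72.6 and 55.4 in P10 cornea, 186 and 236 in tendon, and 29.6 and 35.4 in lens. The tendon arrays lay well above the rest, P10 cornea came next, and adult cornea overlapped lens. Adult cornea averaged 40.4 ± 7.90 and tendon 211 ± 35.1, 4.03-fold lower in adult cornea (log2 difference -2.01 ± 0.21, limma adjusted p = 4.15e-05). P10 cornea was 2.83-fold below tendon (limma adjusted p = 0.00092), and tendon 4.65-fold above lens (limma adjusted p = 2.65e-05).

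P10 cornea was 1.64-fold above lens for Prrx1 (limma adjusted p = 0.025). That call was lost under quantile normalisation (0.0984), median centring (0.0909), and without lens replicate 1 (0.0985), lens replicate 2 (0.0549) or P10 replicate 1 (0.178). Adult cornea was below P10 cornea without overlap of the arrays, by a log2 difference of -0.51 ± 0.21, and did not pass (limma adjusted p = 0.267).

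**Figure D2:**
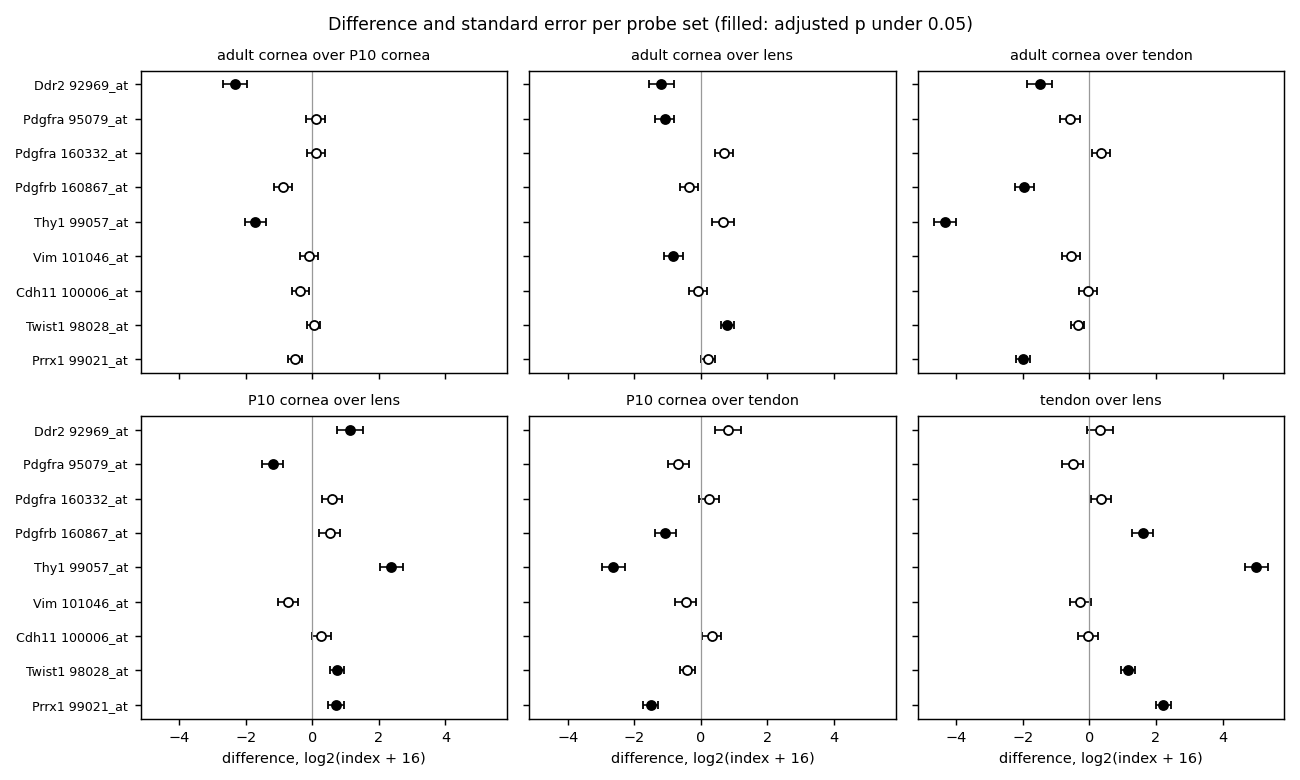
Difference of each tested probe set on the log2(index + 16) scale (horizontal axis) with its standard error, in the 6 comparisons of adult cornea (n = 3), P10 cornea, tendon and lens (n = 2 each). Filled points passed limma's test after adjustment. Every filled point lies left of 0 where cornea is set against tendon and right of 0 where tendon is set against lens. Thy1, Prrx1 and Pdgfrb passed the filter for testing through the tendon arrays alone.

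The 6 comparisons share their arrays, so their counts are not independent of each other. Between the corneal ages, 2 of the 9 tested probe sets, Ddr2 and Thy1, were lower in adult than in P10 cornea and 0 higher, while 4.57% of all 8154 tested probe sets were called, 0.699% higher and 3.88% lower. The members' median log2 difference was -0.36, against -0.13 over all tested probe sets. The 2 calls are a larger share of the members than the background, and they rest on 2 probe sets. Between adult cornea and tendon, 4 members were lower in adult cornea, namely Thy1, Prrx1, Pdgfrb and Ddr2, and 0 higher, against 35.0% of all called, 16.1% higher and 18.9% lower. The members' median was -0.58 there and that of all probe sets 0.01. Between P10 cornea and tendon, Thy1, Prrx1 and Pdgfrb were lower in P10 cornea, 3 of 9, and 0 higher, against 26.7% called, 15.7% higher and 11.0% lower. The medians were -0.45 for the members and 0.13 for all. Testing required the array median on 2 or more arrays, which Thy1, Prrx1 and Pdgfrb reached on the tendon arrays alone. Their direction against tendon, and the members' counts and medians in both comparisons with tendon, are therefore not independent of that filter.

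Against lens the members split. Between adult cornea and lens, Twist1 was higher and Ddr2, Vim and the first Pdgfra probe set lower, 4 of 9, against 51.2% of all called, 27.2% higher and 24.0% lower. The split was 2 higher and 3 lower under quantile normalisation. Between P10 cornea and lens, Ddr2, Thy1, Twist1 and Prrx1 were higher and the first Pdgfra probe set lower, 5 of 9, against 51.0% called, 31.6% higher and 19.4% lower. That split of 4 higher and 1 lower became 2 and 2 under quantile normalisation and 1 and 2 under median centring. Between tendon and lens, Pdgfrb, Thy1, Twist1 and Prrx1 were higher in tendon, 4 of 9, and 0 lower, against 49.0% called, 26.4% higher and 22.6% lower. Of these, Pdgfrb, Thy1 and Prrx1 were tested only because the tendon arrays reached the array median, so their direction is not independent of the filter. The median log2 difference of the members was -0.08, 0.59 and 0.35 in these 3 comparisons with lens, against 0.08, 0.25 and 0.07 over all. The shares of members called lay near those of all probe sets in all 3.

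The choice of scaling also moved the split of calls wherever P10 cornea was compared. Over all probe sets, median centring changed the middle log2 difference from -0.13 to 0.06 for adult over P10 cornea, from 0.25 to 0.01 for P10 cornea over lens and from 0.13 to -0.02 for P10 cornea over tendon. Adult over P10 cornea gave 57 higher and 316 lower, or 76 and 184 after median centring. P10 cornea over lens gave 2578 higher and 1578 lower, or 1914 and 2071 after median centring. P10 cornea over tendon gave 1277 higher and 897 lower, or 989 and 1180.

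The members did not form a single pattern. Of the 9 tested probe sets, 4 had their highest mean in tendon (Pdgfrb, Thy1, Twist1 and Prrx1), 2 in P10 cornea (Ddr2 and Cdh11), 2 in lens (Vim and the first Pdgfra probe set) and 1 in adult cornea (the second Pdgfra probe set). Likeness was measured as the root mean square difference between centred log2 values over the 9 arrays. The closest pair of members was Vim and the first Pdgfra probe set, at 0.20. Pdgfrb and Prrx1 were 0.40 apart, whereas the first and second Pdgfra probe sets were 0.81 apart.

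By the same measure over all tested probe sets with 1 gene, Thy1 lay closest to Col15a1, a collagen of the basement membrane zone of muscle and vessels (0.34), Pvalb, a calcium-binding protein of fast muscle fibres (0.39), and Dab2, an endocytic adaptor (0.48), with a median of 1.94 over all. Prrx1 lay closest to Emp3, a small membrane protein (0.16), Amot, an angiostatin-binding protein (0.18), and Antxr2, a receptor that binds matrix proteins (0.18), with a median of 0.97. Pdgfrb lay closest to Flt1, a receptor for vascular endothelial growth factor (0.17), Nnt, a mitochondrial transhydrogenase (0.20), and Id3, an inhibitor of helix-loop-helix proteins (0.22), with a median of 0.90. Skeletal muscle markers were likewise far higher in tendon than elsewhere, as given above.

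Twist1 lay closest to Znfx1 (0.12), Scarb2, a lysosomal membrane protein (0.13), and Mllt3 (0.13), with a median of 0.60 over all. Ddr2 had no close match: its nearest were Peg3, an imprinted zinc finger gene (0.53), Rest, a repressor of neuronal genes (0.54), and Pitpnb, a lipid transfer protein (0.55), with a median of 1.05. Vim lay closest to Cfb, a complement factor (0.07), Odf1, a protein of the sperm tail (0.15), and Dtna (0.15), with a median of 0.66. Cdh11 lay closest to Ciita, the activator of class II histocompatibility genes (0.08), Krtap9-1, a hair keratin-associated protein (0.09), and Magel2 (0.09), with a median of 0.54. The first Pdgfra probe set lay closest to Mthfd2, a mitochondrial folate enzyme (0.18), Mrps36 (0.19) and AF067063 (0.19), with a median of 0.74.

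**Figure D3:**
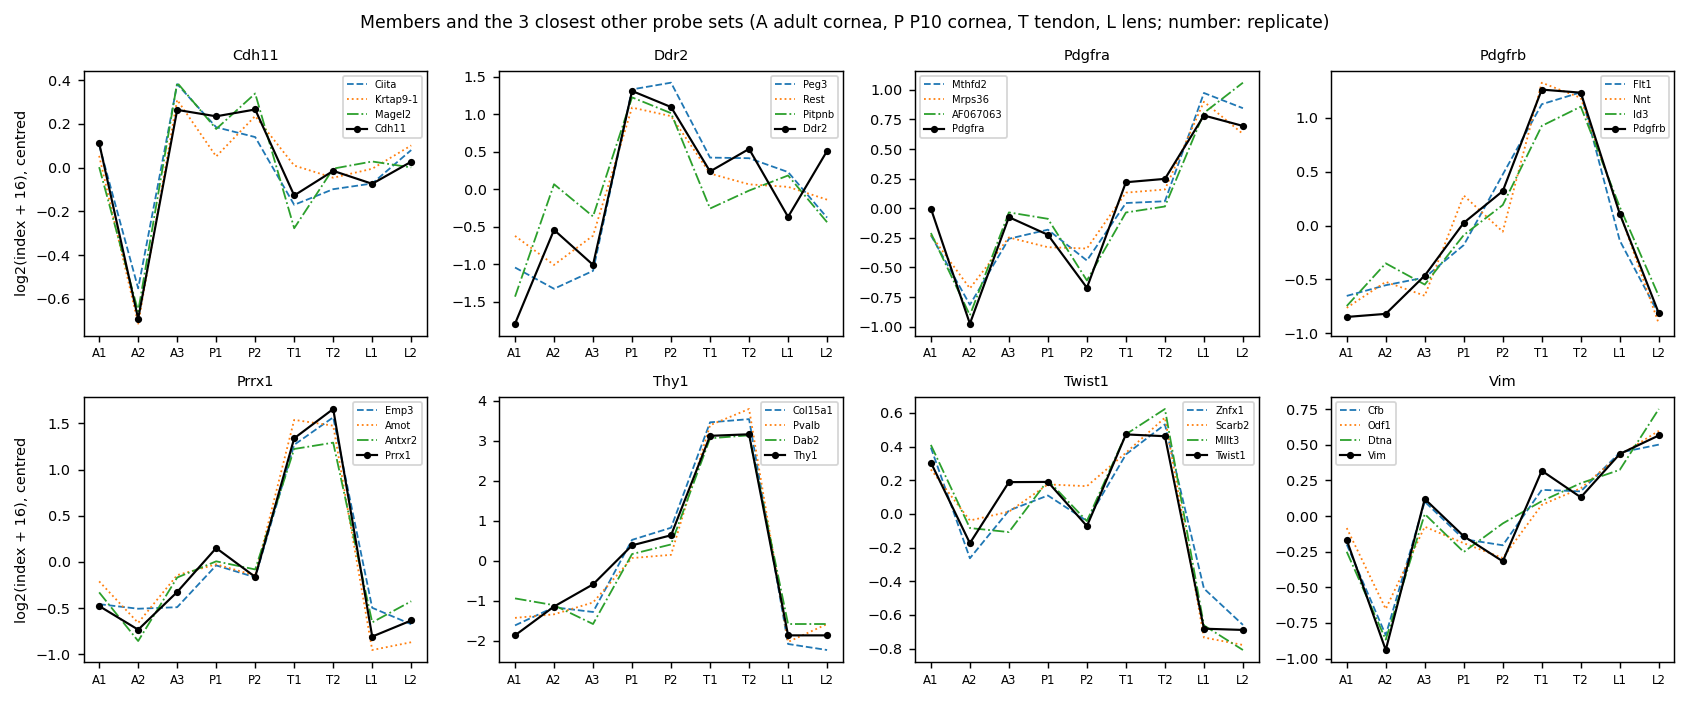
Centred log2(index + 16) of each member (black) and the 3 probe sets closest to it (coloured, broken lines) over the 9 arrays, one panel per gene. Thy1, Prrx1 and Pdgfrb peak in tendon, Ddr2 peaks in P10 cornea, and Cdh11 and its neighbours share a low point at adult cornea replicate 2.

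The genes around the members in their pathways were set beside them. They passed the same filter. Where a gene reached the array median in a single group alone, its direction against that group is not independent of the filter. The counts and medians of the lists share this limit. Of 21 genes of PDGF signalling, 13 were on the array and 8 were tested. Between adult cornea and lens, 4 of the 8 were higher and 1 lower, against 27.2% higher and 24.0% lower over all probe sets, and their median log2 difference was 0.55 against 0.08 over all probe sets. Pdgfa, the ligand of Pdgfra, averaged 227 ± 50.9 in adult cornea, 323 ± 50.7 in P10 cornea and 254 ± 18.5 in tendon, against 113 ± 20.1 in lens, and was higher in all 3 tissues than in lens (limma adjusted p = 0.00847, 0.00135 and 0.00558). Pik3r1, the regulatory subunit of the lipid kinase that the receptors recruit, averaged 24.5 ± 3.63 in adult cornea, against 85.1 ± 4.47 in P10 cornea, and was 2.50-fold lower in adult cornea (limma adjusted p = 0.0049). It was the 1 gene of the 8 called between the corneal ages. It was also lower in adult cornea than in tendon, where it averaged 104 ± 23.0 (limma adjusted p = 0.00017).

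Of the other collagen receptors, 3 of 8 were tested. Ddr1, the sister receptor of Ddr2 that is typical of epithelia, averaged 397 ± 121 in adult cornea, 415 ± 11.7 in P10 cornea, 88.1 ± 9.68 in tendon and 158 ± 71.8 in lens. It was higher in adult cornea than in tendon by 3.85-fold (limma adjusted p = 0.000835) and than in lens by 2.41-fold (limma adjusted p = 0.00687), with the epithelial marker sums on the same side. Ddr2 ran the other way against both tissues in adult cornea. The part of epithelium in the Ddr1 and Ddr2 values was not tested. Mrc2, an endocytic collagen receptor, averaged 78.9 ± 5.12 in adult cornea, 138 ± 2.34 in tendon and 144 ± 25.5 in lens, and was lower in adult cornea than in both (limma adjusted p = 0.0122 and 0.00593).

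All 16 other cadherin and catenin genes were on the array and 14 were tested, and between tendon and lens 4 of the 14 were higher in tendon and 6 lower, against 26.4% higher and 22.6% lower over all probe sets. Cdh2, the cadherin of lens and nerve cells, averaged 20.7 ± 11.5 in adult cornea and 19.0 ± 10.1 in tendon, against 425 ± 176 in lens (limma adjusted p = 1.57e-05 and 2.49e-05). Cdh2 reached the array median in lens alone, so this direction is not independent of the filter. Cdh1, the epithelial cadherin, averaged 371 ± 143 in adult cornea and 353 ± 109 in P10 cornea, against 52.3 ± 9.31 in tendon, and was 5.43-fold and 5.32-fold higher in cornea (limma adjusted p = 0.000275 and 0.000868). Cdh5, the cadherin of vessel endothelium, averaged 0.687 ± 6.70 in adult cornea, 46.3 ± 11.4 in P10 cornea, 119 ± 12.6 in tendon and -8.81 ± 7.04 in lens. It was lower in adult than in P10 cornea (limma adjusted p = 0.00368) and lower in adult cornea than in tendon (limma adjusted p = 1.05e-05).

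Of 15 other intermediate filament and linker genes, 9 were tested, and between adult cornea and lens 6 of the 9 were higher and 2 lower, against 27.2% higher and 24.0% lower over all. Bfsp1, the beaded filament protein of lens fibres, averaged 68.9 ± 9.45 in adult cornea and 139 ± 11.4 in P10 cornea, against 3516 ± 305 in lens (limma adjusted p = 1.09e-07 and 4.6e-07). Des, the muscle filament protein, averaged 15.8 ± 12.9 in adult cornea and 14.6 ± 7.76 in P10 cornea, against 2305 ± 160 in tendon (limma adjusted p = 2.08e-07 and 6.04e-07). Des reached the array median in tendon alone, so this direction is not independent of the filter. Lmna, a nuclear lamin, averaged 285 ± 70.0 in adult cornea, 399 ± 72.4 in P10 cornea and 714 ± 49.8 in tendon, against 45.1 ± 20.2 in lens (limma adjusted p = 5.51e-05, 3.78e-05 and 4.61e-06).

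Of 25 other mesenchymal transcription factors, 14 were tested. Between tendon and lens 5 of the 14 were higher and 4 lower, against 26.4% higher and 22.6% lower over all, with a median of 0.69 against 0.07 over all. Meox2, a homeobox gene of somites and muscle, averaged -3.05 ± 2.44 in adult cornea and 2.06 ± 1.73 in P10 cornea, against 211 ± 29.0 in tendon (limma adjusted p = 5.6e-07 and 2.26e-06). Scx, the tendon transcription factor, averaged 94.2 ± 24.6 in adult cornea, against 306 ± 48.4 in tendon, 2.95-fold lower in adult cornea (limma adjusted p = 0.000301). Zeb1, a repressor of epithelial genes, averaged 92.1 ± 3.51 in adult cornea and 111 ± 7.48 in P10 cornea, against 255 ± 4.06 in tendon (limma adjusted p = 0.000158 and 0.00162).

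Twist2, the closest relative of Twist1, went the opposite way to it against lens. It averaged 168 ± 17.6 in adult cornea, 241 ± 71.3 in P10 cornea and 80.6 ± 3.55 in tendon, against 2603 ± 99.8 in lens (limma adjusted p = 5.92e-07, 2.6e-06 and 1.88e-07). Tbx15 also read higher in lens, with 210 ± 90.9 in adult cornea and 187 ± 47.2 in P10 cornea, against 1708 ± 140 in lens (limma adjusted p = 2.56e-05 and 4.82e-05). Msx1, a homeobox gene of craniofacial mesenchyme, was the 1 factor called between the corneal ages, at 136 ± 51.3 in adult cornea and 323 ± 22.7 in P10 cornea (2.32-fold lower, limma adjusted p = 0.0374).

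All 7 partners and inhibitors of Twist1 were tested. Tcf4, an E protein that pairs with Twist1, averaged 84.0 ± 15.4 in adult cornea, 174 ± 3.75 in P10 cornea, 309 ± 35.2 in tendon and 87.7 ± 25.5 in lens. It was lower in adult than in P10 cornea by 1.92-fold (limma adjusted p = 0.0406) and lower in adult cornea than in tendon by 3.26-fold (limma adjusted p = 0.000182). Id1, which holds E proteins off DNA, averaged 330 ± 61.5 in adult cornea, 418 ± 20.3 in P10 cornea and 353 ± 26.5 in tendon, against 145 ± 3.88 in lens, and was higher in all 3 (limma adjusted p = 0.00117, 0.000412 and 0.00116).

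Of 14 other stromal surface proteins, 12 were tested. Between adult and P10 cornea 3 of the 12 were lower and 0 higher, against 3.88% lower and 0.699% higher over all. Fap, a serine protease of reactive fibroblasts, averaged 9.75 ± 3.16 in adult cornea, 43.6 ± 0.773 in P10 cornea and 120 ± 15.9 in tendon, and was lower in adult cornea than in P10 cornea (2.33-fold, limma adjusted p = 0.0134) and than in tendon (5.30-fold, limma adjusted p = 1.82e-05). Anpep, a membrane aminopeptidase, averaged 82.9 ± 9.14 in adult cornea, against 212 ± 7.33 in P10 cornea (limma adjusted p = 0.00431). Cd34, a sialomucin of vessel endothelium and stromal cells, averaged 34.6 ± 4.44 in adult cornea and 55.5 ± 2.13 in P10 cornea, against 286 ± 1.50 in tendon (limma adjusted p = 8.54e-06 and 0.000125). Cd34 and Fap reached the array median in tendon alone, so their direction against tendon is not independent of the filter. Alcam, an adhesion molecule, ran the other way, at 63.0 ± 9.98 in adult cornea and 140 ± 1.51 in P10 cornea, against 11.1 ± 2.66 in tendon (limma adjusted p = 0.000175 and 1.72e-05).

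The 12 tested fibroblast genes of 14 listed were mostly matrix genes. Between adult and P10 cornea 9 of 12 were lower and 0 higher, against 3.88% lower and 0.699% higher over all probe sets, and their median log2 difference was -1.26, against -0.13 over all. Between adult cornea and tendon 11 of 12 were lower and 0 higher, against 18.9% lower and 16.1% higher over all, with a median of -2.0 against 0.01. Between tendon and lens 11 were higher and 1 lower, against 26.4% higher and 22.6% lower over all, with a median of 3.27 against 0.07. Col1a1, a chain of type I collagen, averaged 2279 ± 37.8 in adult cornea, 6452 ± 445 in P10 cornea, 8527 ± 561 in tendon and 41.7 ± 2.65 in lens. S100a4, a calcium-binding protein also known as fibroblast-specific protein, averaged 173 ± 19.7 in adult cornea and 173 ± 0.412 in P10 cornea, against 3106 ± 413 in tendon (16.5-fold lower at both ages, limma adjusted p = 1.38e-07 and 4.02e-07), and 1893 ± 244 in lens.

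Of the 9 tested contractile and mural cell genes of 12 listed, 6 were lower and 1 higher in adult than in P10 cornea, against 3.88% lower and 0.699% higher over all, with a median of -1.26 against -0.13. Acta2, the smooth muscle actin of myofibroblasts and mural cells, averaged 23.4 ± 13.2 in adult cornea, 284 ± 126 in P10 cornea, 346 ± 63.8 in tendon and 557 ± 154 in lens, and was 7.59-fold lower in adult than in P10 cornea (limma adjusted p = 0.00181). Notch3, a receptor of mural cells, averaged 619 ± 85.0 in adult cornea and 429 ± 42.0 in P10 cornea, against 142 ± 14.4 in tendon and 44.9 ± 5.29 in lens. Against tendon, 7 of the 9 genes were lower in adult cornea and 2 higher, against 18.9% lower and 16.1% higher over all. Notch3 was 1 of those 2, 4.01-fold higher in adult cornea (limma adjusted p = 2.42e-05), whereas Pdgfrb was lower, like most of this list. In P10 cornea, the summed index of 4 melanocyte and pigment epithelium genes was also higher, at 1246 to 3509, against 503 to 653 in adult cornea. The part of pigment cells in the differences between ages was not tested.

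**Figure D4:**
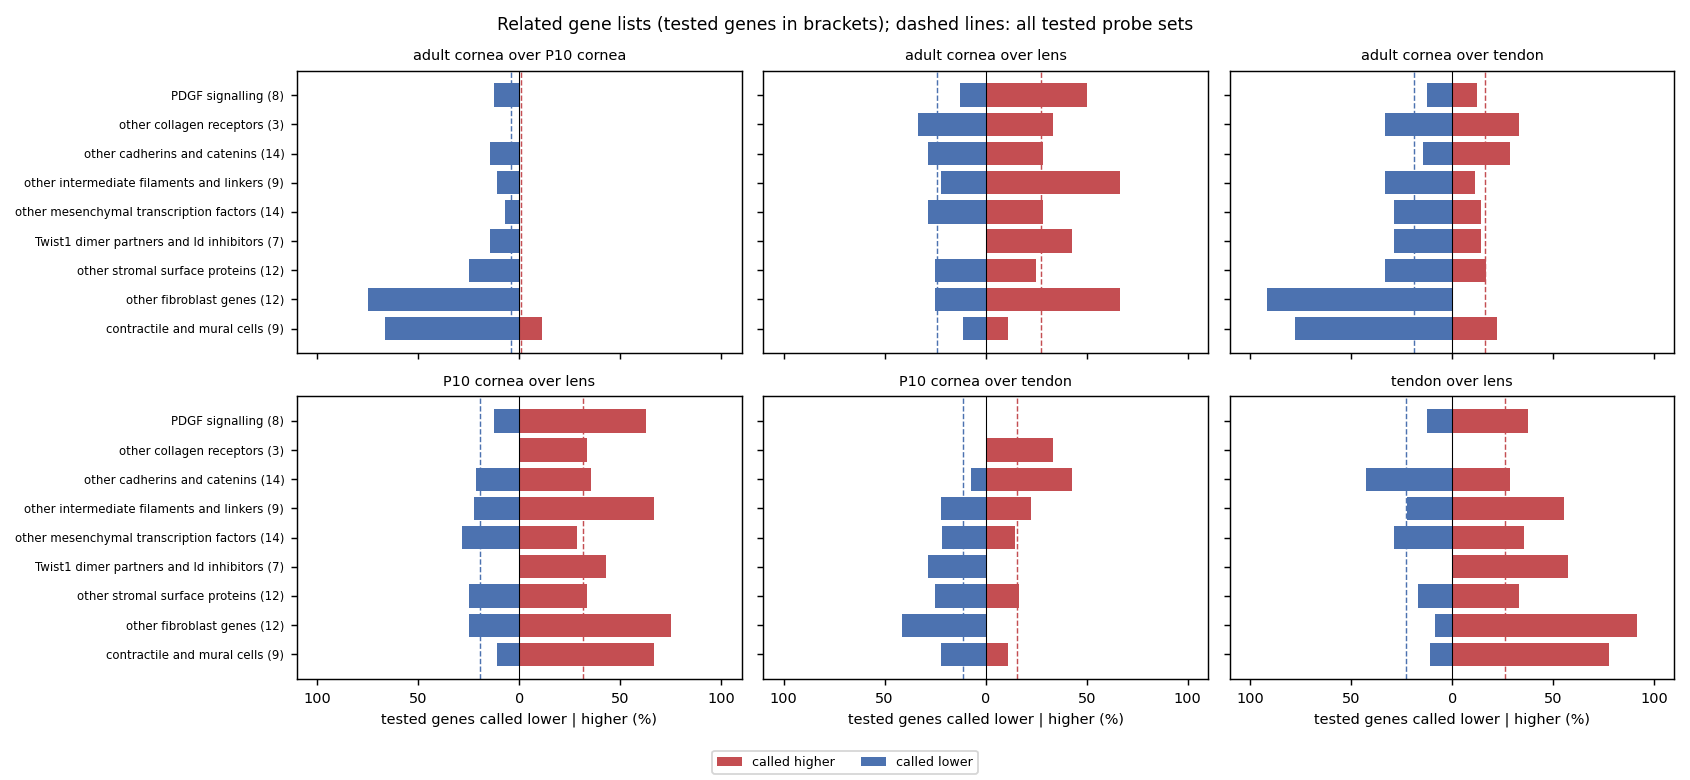
Share of tested genes of each list called higher (red, to the right) or lower (blue, to the left) in the 6 comparisons, in percent. Dashed lines mark the same shares over all 8154 tested probe sets, and tested genes per list stand in brackets. The fibroblast genes reach 11 of 12 lower in adult cornea than in tendon.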

How the data were processed

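Biotin-labelled RNA was hybridised to 9 Affymetrix arrays. The authors deposited intensity values as a linear index for each probe set. The series' design text says that the authors ran Microarray Suite 5.0 first and then dChip (invariant-set normalisation, model-based index), whereas MAS5 is named in the submitters' processing notes. Neither source says which of them made the deposited table, and values below 0 occur on every array. All value columns were used.

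Of 12488 probe sets, 66 controls were left out. Probe sets at or above the array median on 2 or more arrays were tested, which kept 8154 and 9 of the 10 member probe sets. Values below 0 were set to 0, 16 was added and log2 taken. A group-means model over the 9 arrays was fitted with limma 3.58.1 in R 4.3.3 (5 residual and 4.93 prior degrees of freedom, variance trend on the mean), with two-sided p-values, Benjamini-Hochberg adjustment over all tested probe sets and a threshold of 0.05. Arrays carry no read depth, and their number limits the precision. The fit was tested on simulated data.

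Members and lists were chosen with earlier results of these data known. Genes of a related list were named from the 3 called with the smallest adjusted p in a comparison, and 3 closest patterns were named per member. Same-numbered replicates did not deviate together (correlations of -0.36 to 0.20 over 12 pairs), so the numbers were not treated as pairs. The alternatives tried changed the pseudocount, filter, normalisation, samples in the fit, test and replicate block, or left out each array. Promoter windows came from RefSeq, GRCm38.p6, and figures were drawn with matplotlib 3.10.9 in Python 3.11.15.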

Additional observations from a re-analysis of the deposited data

How the results depend on the processing

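No member's difference between groups reversed in sign where it was called. Over 54 differences and 1056 alternative values, 955 stayed on the same side of the threshold, 78 calls were lost and 23 gained. Thy1, Prrx1 and Pdgfrb in adult cornea over tendon, those 3 and Twist1 in tendon over lens, Twist1 in adult cornea over lens, Thy1 in P10 cornea over lens and Prrx1 in P10 cornea over tendon passed under every limma setting that tested them. The stricter filter left Thy1, Prrx1 and Pdgfrb out, since they were tested through the tendon arrays alone. Their direction against tendon is not independent of the filter in the other settings. Counts of called members moved as follows, and apart from the settings named the cause was not tested. For adult over P10 cornea, the count of 2 became 1 with a pseudocount of 1, with the stricter filter, in the fit of only the groups compared and by the methods' t-test, 0 by that t-test after Benjamini-Hochberg, and 0 to 3 with one array left out. For adult cornea over lens, the 4 became 1 by the methods' t-test, 0 after adjustment, and 2 to 5 with one array left out. For adult cornea over tendon, the 4 became 1 with the stricter filter, 2 by the methods' t-test, 2 after adjustment, and 3 to 5 with one array left out. For P10 cornea over lens, the 5 became 3 with the stricter filter, 3 with median centring, 1 by the methods' t-test, 0 after adjustment, and 2 to 6 with one array left out. For P10 cornea over tendon, the 3 became 1 with a pseudocount of 1, 0 with the stricter filter, 6 in the fit of only the groups compared, 1 by the methods' t-test, 0 after adjustment, and 2 to 4 with one array left out. For tendon over lens, the 4 became 1 with the stricter filter, 1 by the methods' t-test and 0 after adjustment, and stayed 4 with any array left out. The stricter filter, 4 arrays at the median, tested only 5 member probe sets. With the replicate block the counts were 2, 4, 5, 6, 3 and 4 in the same order, and the block gained 2 calls, both of Vim, and lost 0.

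Over all probe sets, adult over P10 cornea gave 373 calls, 194 in the fit of the corneas alone and 84 to 426 with one array left out, the lowest without P10 replicate 2. P10 cornea over tendon gave 2174, 3832 in the fit of only those groups and 1062 without tendon replicate 1. Adult cornea over tendon gave 2856 and 1667 without that array. The methods' t-test at its own thresholds called 141, 1252, 1017, 1035, 628 and 1215 probe sets, and after Benjamini-Hochberg 0, 95, 112, 3, 0 and 0. Groups of 2 arrays borrow their spread from the others. Values near or below the array median, as for Thy1, Pdgfrb and Prrx1 outside tendon, are close to background, and folds there are compressed by the pseudocount. Cdh11 and Vim also fell below the array median on adult cornea replicate 2.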
